A study of Drosophila melanogaster with 18 samples.

Results

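The 9 genes described here carry the insulin, TOR and Myc growth signal in Drosophila melanogaster: InR, chico, Akt, foxo, Thor, Tor, S6k, Myc and Mnt. They were taken by name, as the rows of both count tables whose FlyBase identifier belongs to these symbols, and all 9 were found among the 17559 genes of each table. InR and S6k are listed under earlier identifiers, FBgn0013984 and FBgn0015806, which the annotation now gives as FBgn0283499 and FBgn0283472. All 9 passed the filter on low counts at both durations, so no member is left out of any comparison.

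In this pathway, insulin-like peptides bind the receptor InR, the adaptor chico passes the signal on, and the kinase Akt inactivates the transcription factor foxo. Akt and amino acid supply feed into the TOR kinase, which activates the kinase S6k and inhibits Thor, the 4E-BP that blocks cap-dependent translation. Myc is a transcription factor that raises ribosome production, and Mnt is a repressor that shares the partner Max with it and counteracts it. In the wing disc, the larval epithelium that forms the adult wing, these genes set cell size and tissue growth. Much of this control acts through phosphorylation, which transcript counts do not measure.

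Polyadenylated RNA was sequenced from wing discs of wandering larvae at the end of the last instar in 3 arms: Tip60dn, which expresses a dominant negative Tip60, Tip60wt, which expresses wild type Tip60, and a control. Tip60 is a histone acetyltransferase, the catalytic subunit of NuA4, and the series concerns its role in cell cycle progression and exit. In all arms overlapping clones were induced by a heat shock of 30 min at 37 °C, the transgene was silent at 18 °C, and larvae then spent 48 h or 78 h at 28 °C. Each of the 6 groups has 3 libraries and each library pools 40 discs. The sources used here do not give the driver of the clones or the genotype of the control. Since each disc mixes clones with other cells, fewer cells of a type and less RNA per cell cannot be told apart in these values. Nothing in the labels says that libraries of a group came from separate crosses, so p-values measure only the spread between these libraries.

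The libraries held between 65277725 and 105716567 counts. Tip60 itself averaged 3043 ± 460 CPM in Tip60dn, 1627 ± 209 CPM in Tip60wt and 33.7 ± 2.59 CPM in control discs at 48 h, and 2080 ± 400, 1577 ± 524 and 38.9 ± 5.79 CPM at 78 h (SD, n = 3 each). CPM are counts per 1e6 library counts after scaling, and transgene and endogenous Tip60 reads could not be separated. All 14 defining wing disc markers averaged at least 5 CPM in every group, with sums of 2949 to 3634 CPM. Some libraries stood apart in markers of other tissues. The summed fat body list of 10 genes reached 3526 CPM in Tip60wt 48 h replicate 2, against 489.9 to 968.5 CPM in the other 17 libraries. For the salivary gland list, control 78 h replicate 1 held 2112 CPM, beside 56.3 and 29.6 CPM for replicates 2 and 3 of that group. The hemocyte list of 13 genes summed to 814 to 1090 CPM in Tip60dn, 469 to 524 CPM in Tip60wt and 462 to 574 CPM in control discs at 48 h, and to 590 to 1028, 436 to 554 and 516 to 575 CPM at 78 h. Of this list, 11 of 13 tested genes at 48 h and 11 of 12 at 78 h were called higher in Tip60dn than in Tip60wt, beside 18.0% and 17.6% of all genes, and 10 of 13 and 7 of 12 were called higher than in control, beside 19.6% and 22.4%. Muscle and myoblast markers were called higher in Tip60dn than in Tip60wt for 1 of 8 at 48 h and 7 of 8 at 78 h, and higher than in control for 4 of 8 and 5 of 8, with 1 of 8 lower at each duration. Their sums ranged from 1214 to 1347 CPM in Tip60dn, 1125 to 1223 CPM in Tip60wt and 1188 to 1228 CPM in control libraries. Of 4 tracheal markers, 2 were higher in Tip60dn than in Tip60wt and 3 higher than in control at each duration. Of 7 neuron markers, 3 at 48 h and 4 at 78 h were higher in Tip60dn than in Tip60wt. Against control 4 of 7 were higher at each duration, and in each of these comparisons 1 of 7 was lower. Of 9 tested fat body markers, 1 was higher and 3 lower in Tip60dn than in Tip60wt at 48 h. At 78 h 2 were higher and 1 lower. Of the 14 wing disc markers, 3 were higher in Tip60dn than in control at each duration and 0 were called against Tip60wt. Between Tip60wt and control, 1 of 4 tracheal markers at 48 h and 2 of 4 at 78 h were higher in Tip60wt (1.73% and 2.09% of all genes). At 48 h 3 of 13 hemocyte markers were lower in Tip60wt than in control (1.84% of all genes). At 78 h 1 of 7 neuron markers was higher, and no other marker was called between these arms. The part of blood cells, myoblasts, trachea and other cell types in the results was not tested.

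Myc rose and Akt fell in Tip60dn discs, against Tip60wt and against the control, at both durations. Mnt fell in 3 of those 4 comparisons. S6k fell in Tip60dn against the control at both durations, but was not called between Tip60dn and Tip60wt. S6k was also lower in Tip60wt than in control, without a call, at -0.19 on the log2 scale at 48 h and -0.13 at 78 h. Expression of Tip60wt gave no called difference in any of the 9 genes against the control. The differences were small: apart from Thor, which was called nowhere, no member differed between arms by more than 0.51 on the log2 scale. Calls are adjusted p-values under 0.05 from edgeR's two-sided quasi-likelihood test with Benjamini-Hochberg adjustment over all 10693 genes tested at 48 h or 10598 at 78 h.

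At 48 h, 4 of 9 genes were called between Tip60dn and Tip60wt, where 35.7% of all tested genes were called. Of these, 1 was higher (18.0% of all genes) and 3 were lower (17.7% of all genes). The libraries did not overlap for 6 of the 9 genes, against 49.6% of all genes. Against the control at 48 h, 4 of 9 were called in Tip60dn, 1 higher and 3 lower, where 39.0% of all genes were called, 19.6% higher and 19.4% lower. At 78 h, 3 of 9 were called between Tip60dn and Tip60wt, 1 higher and 2 lower, where 36.8% of all genes were called, 17.6% higher and 19.2% lower. These 3 came from the fit without a replicate block. The 78 h libraries of these arms were read as pairs by number, and with the replicate block 4 of 9 were called there. Against the control at 78 h, 4 of 9 were called, 1 higher and 3 lower, where 44.2% of all genes were called, 22.4% higher and 21.7% lower. The counts of members called were thus near those of the tables as a whole. The libraries did not overlap for 5 of 9 genes between Tip60dn and control at 48 h (50.8% of all genes), for 3 of 9 between Tip60dn and Tip60wt at 78 h (47.8%) and for 7 of 9 between Tip60dn and control at 78 h (56.8%).

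The median log2 fold change of the 9 genes was -0.13 for Tip60dn against Tip60wt and -0.11 for Tip60dn against control at 48 h, where the medians of all genes were 0.01 and 0.02. At 78 h the members' medians were -0.07 and -0.10, and those of all genes 0.01 and 0.03. Between Tip60wt and control none of the 9 genes was called at 48 h, where 3.57% of all genes were (1.73% higher, 1.84% lower), and none at 78 h, where 4.07% were (2.09% higher, 1.97% lower). The Tip60wt and control libraries did not overlap for 1 gene at 48 h, S6k, where 21.6% of all genes did not, and for 1 at 78 h, Myc, where 26.6% did not. At an unadjusted p under 0.05, 2 of the 9 were below the threshold at 48 h and 1 at 78 h. DESeq2 called 1 member at 48 h and none at 78 h, and limma-voom none at either. The comparisons at 1 duration share libraries: the Tip60dn libraries enter both of their contrasts, and so their results are not independent of each other.

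**Figure D1:**
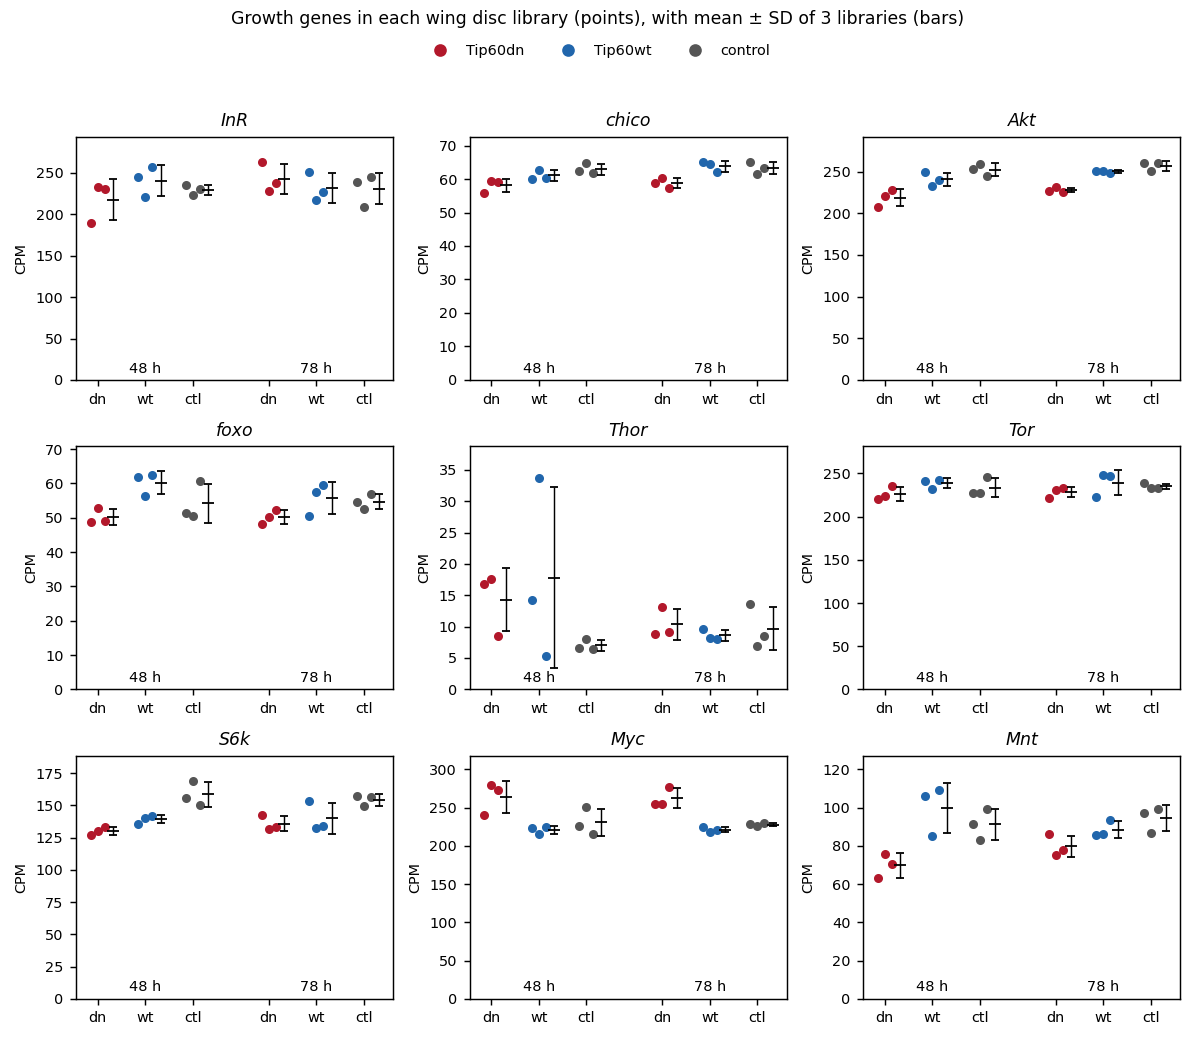
CPM of each of the 9 genes in the 18 libraries, 1 panel per gene, with Tip60dn, Tip60wt and control side by side at 48 h and at 78 h; points are libraries and bars give the mean and SD of 3 libraries. The Tip60dn mean lies above both other arms for Myc and below them for Akt at both durations, and Thor has 1 Tip60wt library at 33.7 CPM at 48 h.

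InR, the insulin receptor, lies on 3R at 21570248 to 21619321, minus strand, in BDGP6. At 48 h InR had 189.5, 233 and 230.3 CPM in Tip60dn, 244, 220.3 and 257 CPM in Tip60wt and 235, 223 and 230.4 CPM in control libraries. At 78 h InR had 263, 228 and 238 CPM in Tip60dn, 251, 217 and 226 CPM in Tip60wt and 239, 209 and 245 CPM in control libraries. The groups overlapped at both durations, and Tip60dn 48 h replicate 1 was the lowest of all 18. The log2 fold change of Tip60dn against Tip60wt was -0.14 (SE 0.08, edgeR adjusted p = 0.211) at 48 h and 0.07 (SE 0.08, adjusted p = 0.506) at 78 h. InR is itself a known target of foxo, and it was called in no comparison.

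The adaptor chico, the fly insulin receptor substrate (FBgn0024248, 2L 10242512 to 10247078, minus strand), varied little. At 48 h chico had 55.9, 59.4 and 59.1 CPM in Tip60dn, 60.0, 62.8 and 60.4 CPM in Tip60wt and 62.3, 64.8 and 61.75 CPM in control libraries. At 78 h the values were 58.8, 60.4 and 57.2 CPM in Tip60dn, 65.0, 64.6 and 61.95 CPM in Tip60wt and 65.0, 61.5 and 63.3 CPM in control libraries. All Tip60dn libraries lay below all others of their duration. At 78 h chico fell in Tip60dn against Tip60wt by 0.12 on the log2 scale (SE 0.04, edgeR adjusted p = 0.0343). That call was lost without Tip60wt replicate 1 (adjusted p = 0.0588) or replicate 2 (0.0915), without Tip60dn replicate 1 (0.0547) or replicate 3 (0.0981), and in a fit of only those 6 libraries (0.0646).

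Against the control chico narrowly missed the threshold, with log2 fold changes in Tip60dn of -0.11 (SE 0.04, edgeR adjusted p = 0.0570) at 48 h and -0.10 (SE 0.04, adjusted p = 0.0566) at 78 h. At both durations DESeq2 (adjusted p = 0.0320 at 48 h and 0.0431 at 78 h), edgeR with no filter (0.0348 and 0.0396) and edgeR with all 18 libraries fitted together (0.0210 and 0.0323) called it. At 48 h it was also called with the size factors of DESeq2 (0.0421), and at 78 h without control replicate 2 (0.0468). An antisense RNA, asRNA:CR44995, lies opposite 10.6% of the exonic bases of chico, and it had 0 counts in all 18 libraries.

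Akt (FBgn0010379, 3R 16099228 to 16105670, plus strand), the kinase downstream of PI3K, fell in all 4 comparisons of Tip60dn. At 48 h Akt had 208, 221 and 228 CPM in Tip60dn, 249, 233 and 240.5 CPM in Tip60wt and 253.5, 259.7 and 244.5 CPM in control libraries. At 78 h Akt had 227, 231 and 225 CPM in Tip60dn, 251, 251 and 249 CPM in Tip60wt and 260.1, 250.3 and 260.1 CPM in control libraries. No Tip60dn library reached the lowest library of either other arm at its duration.

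At 78 h Akt fell in Tip60dn by 0.13 on the log2 scale against Tip60wt (SE 0.03, edgeR adjusted p = 0.00528) and by 0.17 against control (SE 0.03, adjusted p = 0.00147). At 48 h it fell by 0.20 against control (SE 0.05, adjusted p = 0.00715) and by 0.13 against Tip60wt (SE 0.05, adjusted p = 0.0462). The 48 h call against Tip60wt was lost without Tip60dn replicate 1 (0.149) or 2 (0.0930), without Tip60wt replicate 1 (0.0947) or 3 (0.0983) and with only those 6 libraries (0.0657). The other Akt calls held without each library in turn.

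Tor (FBgn0021796, 2L 13004480 to 13013197, plus strand), the kinase at the centre of both TOR complexes, was the steadiest member. At 48 h Tor had 219.9, 224 and 235 CPM in Tip60dn, 241, 232 and 243 CPM in Tip60wt and 227.5, 227.5 and 246 CPM in control libraries. At 78 h Tor had 222, 231 and 233 CPM in Tip60dn, 223, 249 and 247 CPM in Tip60wt and 239, 233 and 234 CPM in control libraries. Its highest library exceeded its lowest by a factor of 1.13 over all 18. No comparison called it, with log2 fold changes of Tip60dn against Tip60wt of -0.07 (SE 0.04, edgeR adjusted p = 0.235) at 48 h and -0.07 (SE 0.05, adjusted p = 0.274) at 78 h. Without Tip60wt 78 h replicate 1, its lowest Tip60wt library, the 78 h difference was called (adjusted p = 0.0155).

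S6k (3L 5797549 to 5810931, minus strand) encodes the kinase that TOR activates and that phosphorylates the ribosomal protein RpS6. At 48 h S6k had 127, 130.3 and 133 CPM in Tip60dn, 136, 140.1 and 142 CPM in Tip60wt and 156, 169 and 151 CPM in control libraries. The 3 arms did not overlap at 48 h, with Tip60wt between Tip60dn and control. At 78 h S6k had 142, 132 and 133 CPM in Tip60dn, 154, 132 and 134 CPM in Tip60wt and 157, 149 and 156 CPM in control libraries. All Tip60dn libraries lay below control there, and Tip60wt overlapped control through replicate 1 and Tip60dn through replicates 2 and 3.

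S6k fell in Tip60dn against control by 0.28 on the log2 scale at 48 h (SE 0.05, edgeR adjusted p = 0.00165) and by 0.18 at 78 h (SE 0.06, adjusted p = 0.0340). Tip60dn did not differ from Tip60wt beyond the threshold, with -0.09 at 48 h (SE 0.05, adjusted p = 0.154) and -0.04 at 78 h (SE 0.06, adjusted p = 0.6). Tip60wt against control gave -0.19 at 48 h (SE 0.05, adjusted p = 0.0662) and -0.13 at 78 h (SE 0.06, adjusted p = 0.237). DESeq2 called the 48 h difference of Tip60wt from control (adjusted p = 0.00938), as did edgeR without control replicate 3 (0.0360), and the 78 h one was called without Tip60wt replicate 1 (0.0242). The 78 h call of Tip60dn against control was lost without Tip60dn replicate 2 (0.109) or 3 (0.0943) or control replicate 1 (0.0952) or 3 (0.0935).

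**Figure D2:**
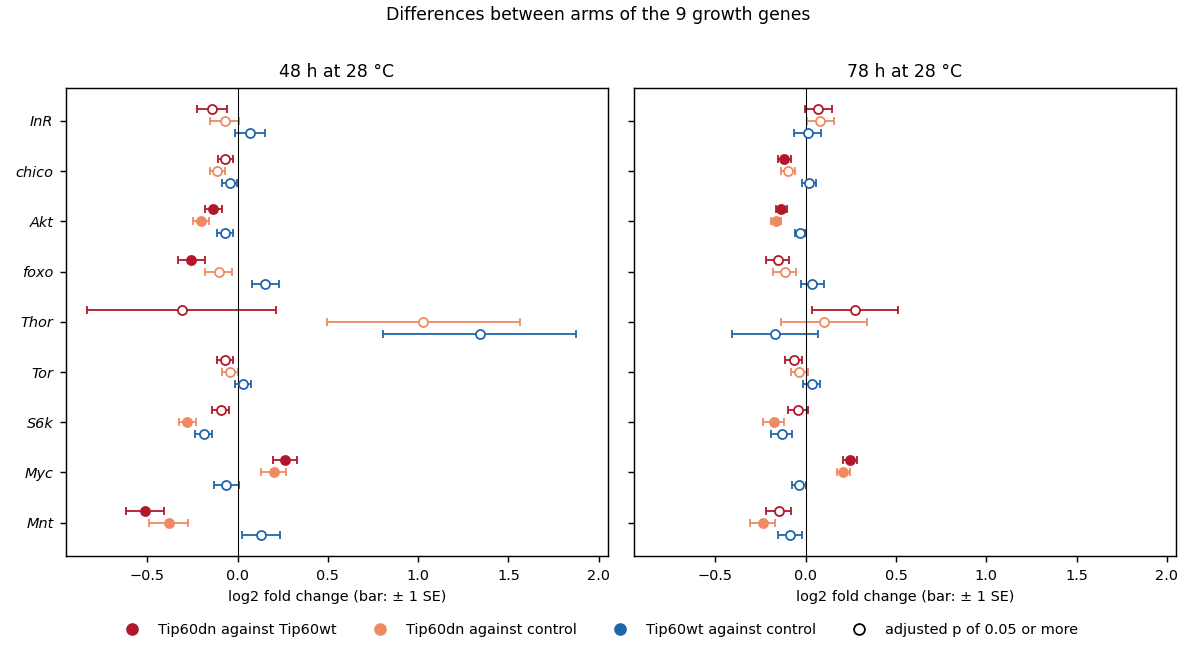
Log2 fold change of the 9 genes with its SE for Tip60dn against Tip60wt, Tip60dn against control and Tip60wt against control at 48 h and 78 h; filled points passed an adjusted p of 0.05. Myc lies right of 0 and Akt left of it in all 4 Tip60dn comparisons, and no Tip60wt comparison has a filled point.

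The transcription factor foxo (FBgn0038197, 3R 14056945 to 14087978, plus strand) is held out of the nucleus when Akt is active. At 48 h foxo had 48.8, 52.9 and 48.9 CPM in Tip60dn, 61.7, 56.4 and 62.5 CPM in Tip60wt and 51.3, 50.5 and 60.7 CPM in control libraries. At 78 h foxo had 48.1, 50.1 and 52.2 CPM in Tip60dn, 50.5, 57.4 and 59.5 CPM in Tip60wt and 54.6, 52.4 and 56.9 CPM in control libraries. At 48 h the Tip60wt libraries lay above all Tip60dn libraries, and the control libraries spread over both.

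At 48 h foxo fell in Tip60dn against Tip60wt by 0.26 on the log2 scale (SE 0.08, edgeR adjusted p = 0.0253). The call was lost without Tip60dn replicate 1 (0.0794) or 3 (0.0687) or Tip60wt replicate 1 (0.0664) or 3 (0.0781). At 78 h the difference was -0.15 (SE 0.06, adjusted p = 0.0865). With the replicate block it became a call (adjusted p = 0.0429), as it did without Tip60wt replicate 1 (0.00742). That block also covered the control libraries, whose numbers did not pair with either of these arms. Against control foxo was not called, at -0.11 (SE 0.08, adjusted p = 0.302) at 48 h and -0.12 (SE 0.06, adjusted p = 0.165) at 78 h.

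Thor (FBgn0261560, 2L 3478434 to 3479612, plus strand), the translational repressor 4E-BP and a known foxo target, had the lowest median CPM per kb and the widest range of the 9 genes, with its highest library exceeding its lowest by a factor of 6.25. At 48 h Thor had 16.9, 17.5 and 8.58 CPM in Tip60dn, 14.3, 33.7 and 5.39 CPM in Tip60wt and 6.66, 8.04 and 6.45 CPM in control libraries. At 78 h Thor had 8.77, 13.2 and 9.17 CPM in Tip60dn, 9.57, 8.23 and 7.98 CPM in Tip60wt and 13.6, 6.98 and 8.50 CPM in control libraries. The Tip60dn libraries lay above the control libraries at 48 h and overlapped them at 78 h, while Tip60wt spanned the whole range at 48 h.

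At 48 h Thor differed from control by a log2 fold change of 1.03 in Tip60dn (SE 0.53, edgeR adjusted p = 0.158) and 1.34 in Tip60wt (SE 0.54, adjusted p = 0.243). A fit of only the 6 Tip60dn and control libraries called the Tip60dn difference (adjusted p = 0.0173). Tip60dn against Tip60wt gave -0.31 at 48 h (SE 0.52, adjusted p = 0.675), and 0.54 without Tip60wt replicate 2 (adjusted p = 0.341). At 78 h the values were 0.27 against Tip60wt (SE 0.24, adjusted p = 0.407) and 0.10 against control (SE 0.24, adjusted p = 0.757).

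Thor was highest in Tip60wt 48 h replicate 2, the library with 3526 CPM of fat body markers. The fat body marker Fbp1 stood at 1198 CPM there, against 111 and 5.12 CPM in the other Tip60wt 48 h libraries, and Lsp2 at 46.7 CPM, against 4.90 and 0.468 CPM. Not every library with more Fbp1 had more Thor. Control 78 h replicate 3 held 328 CPM of Fbp1 with Thor at 8.50 CPM. Tip60dn 48 h replicates 1 and 2 held 19.8 and 20.4 CPM of Fbp1 with Thor at 16.9 and 17.5 CPM. The fat body list summed to 612 and 571 CPM in those Tip60dn libraries and to 514 to 612 CPM in control libraries at 48 h. Much of each sum came from GNBP3 (226.3 to 288.5 CPM over the 18 libraries) and Col4a1 (148.7 to 356 CPM). Col4a1 is also on the hemocyte list, so similar sums say little about the other fat body genes. Over the 18 libraries the gene whose log2 CPM followed Thor most closely was Lsp1alpha, a serum protein of the fat body (r = 0.77, Spearman's rho 0.67, r = 0.64 without the 2 libraries farthest from the median of Thor). With the group means removed, Thor and Lsp1alpha had r = 0.87. Lsp1alpha stood at 17.9, 15.8 and 4.23 CPM in Tip60dn and 3.09, 110.1 and 0.681 CPM in Tip60wt libraries at 48 h, against 6.58, 5.94 and 2 CPM in control libraries. Tip60dn 78 h replicate 2, at 64.9 CPM of Lsp1alpha, was the highest of its group for Thor as well, at 13.2 CPM. The part of fat body RNA in the Thor values was not tested.

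**Figure D3:**
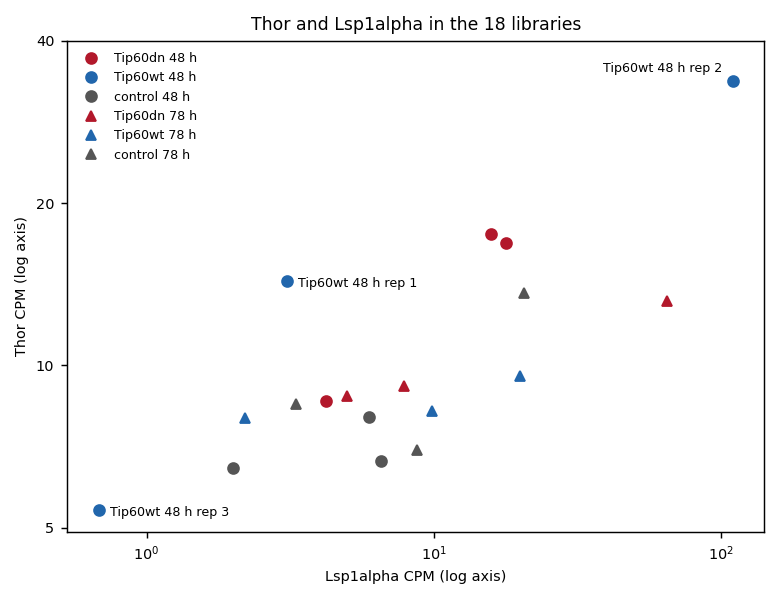
CPM of Thor (vertical axis, log scale) against CPM of the fat body gene Lsp1alpha (horizontal axis, log scale) in the 18 libraries, coloured by arm and marked by duration. The Tip60wt 48 h library at 33.7 CPM of Thor is also the one at 110.1 CPM of Lsp1alpha.

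Myc (FBgn0262656, X 3373159 to 3391697, plus strand) was the only member called higher in the main edgeR fits. At 48 h Myc had 240.1, 279.8 and 273 CPM in Tip60dn, 223, 215 and 225 CPM in Tip60wt and 226, 250.3 and 215.5 CPM in control libraries. At 78 h Myc had 254, 255 and 277 CPM in Tip60dn, 225, 218 and 220.5 CPM in Tip60wt and 228.5, 226 and 229 CPM in control libraries. All Tip60dn libraries lay above all Tip60wt libraries at both durations, and above all control libraries at 78 h. At 48 h control replicate 2 lay above the lowest Tip60dn library.

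At 78 h Myc rose in Tip60dn by 0.25 on the log2 scale against Tip60wt (SE 0.04, edgeR adjusted p = 0.00112), which is 18.6%, and by 0.21 against control (SE 0.04, adjusted p = 0.00188). Both calls held without each library in turn. At 48 h it rose by 0.26 against Tip60wt (SE 0.07, adjusted p = 0.0156) and by 0.20 against control (SE 0.07, adjusted p = 0.0436). The 48 h calls were less firm. The call against Tip60wt was lost without Tip60dn replicate 2 (0.0639) or 3 (0.0508). The call against control was lost without Tip60dn replicate 2 (0.155) or 3 (0.122), without control replicate 1 (0.127) or 3 (0.140), with only those 6 libraries (0.0842), with no filter (0.0839) and with the size factors of DESeq2 (0.0563).

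The long noncoding RNA lncRNA:CR44999 shares 20.3% of the exonic bases of Myc on the same strand, so reads there may be counted for either gene or for neither. It had 23 to 101 counts a library, with mean CPM at 48 h of 0.902 in Tip60dn, 0.508 in Tip60wt and 0.418 in control discs and at 78 h of 0.956, 0.476 and 0.338. The gene CG12535 lies opposite 40.9% of the exonic bases of Myc and had 13 to 58 counts a library. The libraries were directional, but the sources used here do not give the strand setting of the counting. The CPM per kb of Myc, also in its ratio to Mnt, divide by the full exon length, overlapped bases included.

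Mnt (FBgn0023215, X 3671801 to 3701672, plus strand), the repressor that competes with Myc, moved the other way. At 48 h Mnt had 63.1, 75.8 and 70.5 CPM in Tip60dn, 106, 85.0 and 109 CPM in Tip60wt and 91.6, 82.9 and 99.3 CPM in control libraries. At 78 h Mnt had 86.1, 75.2 and 77.7 CPM in Tip60dn, 85.6, 86.3 and 93.5 CPM in Tip60wt and 97.4, 86.6 and 99.35 CPM in control libraries. Tip60dn lay below both other arms at 48 h. At 78 h Tip60dn lay below control, and its replicate 1 overlapped Tip60wt.

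At 48 h Mnt fell in Tip60dn by 0.51 on the log2 scale against Tip60wt (SE 0.11, edgeR adjusted p = 0.00535), a call that held without each library in turn. It fell by 0.38 against control at 48 h (SE 0.11, adjusted p = 0.0182) and by 0.24 at 78 h (SE 0.07, adjusted p = 0.0182). The 48 h call against control was lost without Tip60dn replicate 1 (0.0683) or control replicate 3 (0.0566), and the 78 h one without Tip60dn replicate 2 (0.0704) or 3 (0.0617) or control replicate 1 (0.0620) or 3 (0.0708). Against Tip60wt at 78 h the difference was -0.15 (SE 0.07, adjusted p = 0.111), and it was called without Tip60dn replicate 1 (0.0374).

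The ratio of Myc to Mnt, each as CPM per kb of exon, puts both partners of Max on a common scale. At 48 h it was 1.89, 1.83 and 1.92 in Tip60dn, 1.05, 1.26 and 1.02 in Tip60wt and 1.23, 1.5 and 1.08 in control libraries. At 78 h it was 1.47, 1.69 and 1.77 in Tip60dn, 1.31, 1.26 and 1.17 in Tip60wt and 1.17, 1.30 and 1.15 in control libraries. The Tip60dn libraries lay above all others of their duration at 48 h and at 78 h, with group means of 1.88 ± 0.0446 at 48 h and 1.64 ± 0.158 at 78 h (SD, n = 3). No test was run on the ratio, since both of its terms had been tested.

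**Figure D4:**
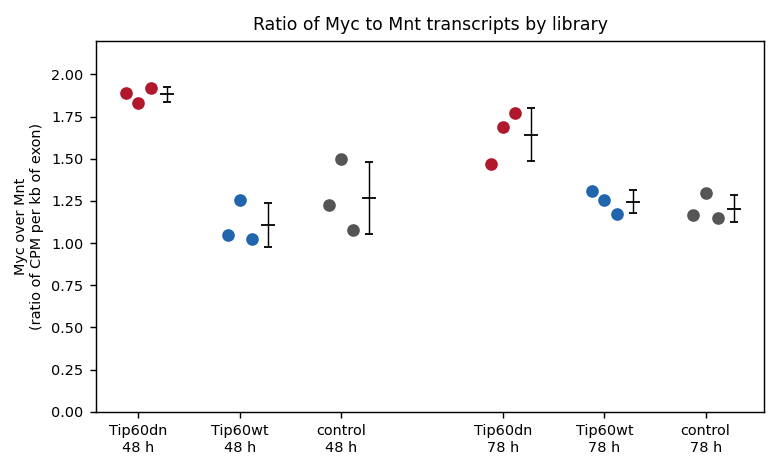
Ratio of Myc to Mnt, each in CPM per kb of exon, in the 18 libraries, with Tip60dn, Tip60wt and control side by side at 48 h and 78 h; bars give the mean and SD of 3 libraries. The lowest Tip60dn library at 48 h, at 1.83, lies above the highest of the other arms, at 1.5.

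Per length of exon, Akt was the most abundant of the 9 genes in all 6 groups, with a median of 50.5 CPM per kb over the 18 libraries. Tor (29.2 CPM per kb), S6k (28.9) and Myc (24.8) came next. InR (20.4), Mnt (18.9), chico (17.2), foxo (12.8) and Thor (11.5) were lower. The order of Tor, S6k and Myc differed between arms. In Tip60dn at 48 h Myc averaged 28.8 ± 2.31, Tor 28.4 ± 1.00 and S6k 26.7 ± 0.583 CPM per kb, and Myc and Tor did not differ beyond their spread. In Tip60wt at 48 h Myc averaged 24.1 ± 0.559 CPM per kb, below Tor at 29.9 ± 0.720 and S6k at 28.5 ± 0.659. In control discs at 48 h Myc averaged 25.2 ± 1.94 CPM per kb, below S6k at 32.5 ± 1.97 and Tor at 29.3 ± 1.35 (SD, n = 3 each). InR and Mnt lay within their spread of each other in Tip60wt and control discs at both durations. Thor had rank 6 of 9 in Tip60dn, rank 5 in Tip60wt and rank 9 in control discs at 48 h, with an SD of 6.59 CPM per kb in Tip60dn and 19.2 in Tip60wt, so these libraries do not fix its place in the order.

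Duration gave no called difference in any member. Between 78 h and 48 h, 0 of the 9 were called in Tip60dn, where 0.134% of all 11173 genes were called (0.0537% higher, 0.0806% lower), and 0 in Tip60wt and in control discs, where 0% of genes were. The libraries of the durations overlapped for all 9 genes in each arm, while they did not overlap for 12.6% of all genes in Tip60dn, 6.44% in Tip60wt and 12.2% in control discs. At an unadjusted p under 0.05 there was 1 member in Tip60wt and none in Tip60dn or control, and DESeq2 and limma-voom called none in any arm. That member was Thor in Tip60wt, at -1.05 on the log2 scale (SE 0.45), with 9.57, 8.23 and 7.98 CPM at 78 h and 14.3, 33.7 and 5.39 CPM at 48 h. Myc hardly moved, with differences of -0.01 in Tip60dn (SE 0.06), 0.00 in Tip60wt (SE 0.06) and -0.02 in control discs (SE 0.06). The durations were deposited as separate tables, so duration cannot be told apart from any difference between the tables or collections.

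No member's difference between arms was shown to differ between 78 h and 48 h. The edgeR interaction test called 0 of the 9 genes in each of the 3 contrasts, where it called 0% of all genes, and DESeq2 and limma-voom called no member either. At an unadjusted p under 0.05 it had 1 member in Tip60dn against Tip60wt and 1 in Tip60wt against control. The first was Mnt, whose log2 fold change was higher by 0.37 at 78 h than at 48 h (SE 0.13, edgeR adjusted p = 0.792). The second was Thor, lower by 1.51 (SE 0.64, adjusted p = 0.999). The interaction for Myc in Tip60dn against Tip60wt was -0.01 (SE 0.08, adjusted p = 0.989) and that for Akt was 0.00 (SE 0.05, adjusted p = 0.997).

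The wider pathway was read from 6 lists of 94 entries, 93 of which matched a gene of the annotation. Apart from the 9 members they hold 91 distinct genes, 84 of them tested at each duration. Of these 84, 12 were higher and 14 lower in Tip60dn than in Tip60wt at 48 h, and 10 higher and 17 lower at 78 h. Against control, 13 were higher and 19 lower in Tip60dn at 48 h, and 17 higher and 23 lower at 78 h. Between Tip60wt and control, 0 were higher and 1 lower at 48 h, and 3 higher and 0 lower at 78 h. The shares called in Tip60dn were 31.0% against Tip60wt and 38.1% against control at 48 h, and 32.1% and 47.6% at 78 h, near the 35.7%, 39.0%, 36.8% and 44.2% of all genes.

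For the Myc target genes of ribosome production, 12 were tested. Of these, 2 were higher and 5 lower in Tip60dn than in Tip60wt at 48 h, with a median log2 fold change of -0.12 beside 0.01 for all genes, and 1 was higher and 7 lower at 78 h (median -0.19). Against control 1 was higher and 6 lower at 48 h (median -0.16 beside 0.02), and 0 were higher and 10 lower at 78 h (median -0.31 beside 0.03). The shares called lower were 41.7% and 58.3% against Tip60wt at 48 h and 78 h, beside 17.7% and 19.2% of all genes, and 50% and 83.3% against control, beside 19.4% and 21.7%. No gene of this list was called between Tip60wt and control. Its median log2 fold change there was -0.07 at 48 h and -0.11 at 78 h, beside 0.004 and 0.006 for all genes.

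Among them nop5, a core protein of box C/D snoRNPs, fell in Tip60dn against control by 0.42 at 78 h on the log2 scale (SE 0.09, edgeR adjusted p = 0.00449). It had 322, 284 and 273.5 CPM in Tip60dn, 418, 332 and 333 CPM in Tip60wt and 402, 391 and 390.5 CPM in control libraries at 78 h. Against Tip60wt at 78 h it fell by 0.30 (SE 0.09, adjusted p = 0.0260). This nop5 call was lost without Tip60dn replicate 2 (0.0780) or 3 (0.0922) or with only those 6 libraries (0.0683). The nucleolar genes pit, at -0.46 against control (SE 0.06, adjusted p = 5.86e-04), and Surf6, at -0.30 against Tip60wt (SE 0.05, adjusted p = 0.00232), fell at 78 h as well. Ns1 fell at 48 h by 0.26 against Tip60wt (SE 0.05, adjusted p = 0.00291) and by 0.34 against control (adjusted p = 6.80e-04). Nnp-1 went the other way at 48 h, with 256, 247 and 209 CPM in Tip60dn and 177, 164 and 175 CPM in Tip60wt libraries (log2 fold change 0.47, SE 0.08, adjusted p = 0.00221).

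**Figure D5:**
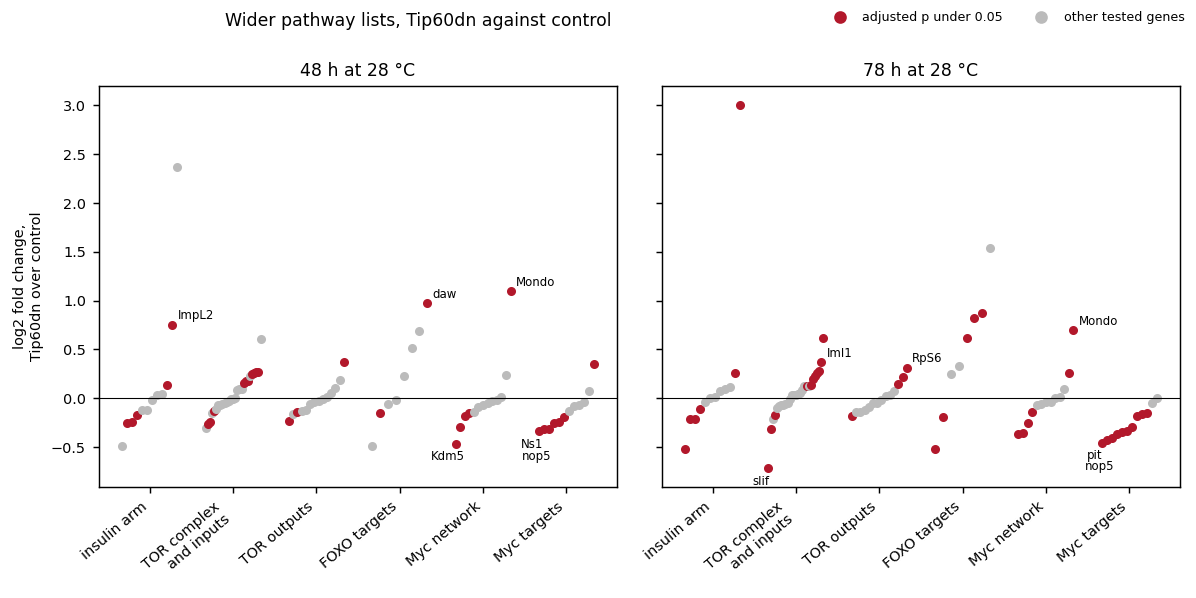
Log2 fold change of Tip60dn against control for the tested genes of the 6 pathway lists at 48 h and 78 h; points are genes, sorted by value within a list, red where the adjusted p was under 0.05 and grey otherwise, with the genes named for this comparison labelled. In the Myc target list 6 genes are red below 0 at 48 h and 10 at 78 h.

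In the Myc network, 13 genes were tested. Mondo, a relative of Myc that senses sugar together with bigmax, had 433, 438 and 303 CPM in Tip60dn, 194, 178 and 161 CPM in Tip60wt and 165.5, 222 and 164 CPM in control libraries at 48 h. At 78 h it had 314, 230.4 and 253 CPM in Tip60dn, 176, 177.5 and 151 CPM in Tip60wt and 168, 162 and 162 CPM in control libraries. Its Tip60dn libraries lay above all others at both durations, with log2 fold changes against Tip60wt of 1.15 at 48 h (SE 0.16, edgeR adjusted p = 7.86e-04) and 0.66 at 78 h (SE 0.10, adjusted p = 0.00138). Kdm5, a histone demethylase that binds Myc, had 226.5, 244 and 255 CPM in Tip60dn, 316, 319 and 323 CPM in Tip60wt and 326, 336 and 341 CPM in control libraries at 48 h, a fall of 0.40 against Tip60wt (SE 0.05, adjusted p = 2.99e-04). Of the list, 1 gene was higher and 2 were lower in Tip60dn than in Tip60wt at 48 h, and 1 higher and 4 lower at 78 h, shares of 23.1% and 38.5% beside 35.7% and 36.8% of all genes.

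Of the list of the insulin arm, 12 genes were tested. In Tip60dn 2 were higher and 1 lower than in Tip60wt at 48 h, and 1 higher and 2 lower at 78 h. Against control 2 were higher and 3 lower at 48 h, and 2 higher and 4 lower at 78 h. These are 25.0% called against Tip60wt at each duration, beside 35.7% and 36.8% of all genes, and 41.7% and 50% against control, beside 39.0% and 44.2%. Ilp8, the relaxin-like peptide that damaged or overgrowing discs release to delay pupariation, had 5.62, 8.06 and 1.52 CPM in Tip60dn and 0.255, 0.217 and 0.298 CPM in Tip60wt libraries at 48 h, a log2 fold change of 4.31 (SE 1.06, edgeR adjusted p = 0.0117). Control libraries had 0.190, 2.55 and 0.200 CPM, so control replicate 2 lay above the lowest Tip60dn library, and the difference from control was 2.37 (SE 0.94, adjusted p = 0.0740). At 78 h it had 4.41, 1.37 and 1.31 CPM in Tip60dn, 0.245, 0.224 and 0.297 CPM in Tip60wt and 0.202, 0.428 and 0.251 CPM in control libraries. It rose there in Tip60dn by 3.21 against Tip60wt (SE 0.53, adjusted p = 0.00177) and by 3.01 against control (SE 0.52, adjusted p = 0.00171). ImpL2, which binds and sequesters insulin-like peptides, had 166, 197 and 126 CPM in Tip60dn, 187, 153 and 124 CPM in Tip60wt and 84.9, 121 and 84.9 CPM in control libraries at 48 h.

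ImpL2 rose in Tip60dn against control by 0.75 at 48 h (SE 0.20, edgeR adjusted p = 0.0163). That call was lost without Tip60dn replicate 2 (0.0633) or control replicate 1 (0.0634) or 3 (0.0534). In Tip60wt at 78 h it had 124, 121 and 117 CPM, against 89.6, 85.0 and 94.4 CPM in control libraries. That rise in Tip60wt against control was 0.44 (SE 0.06, adjusted p = 0.00463), and it was not called when all 18 libraries were fitted together (0.150). The cytohesin gene step, which acts in insulin signalling, was the 1 list gene called between Tip60wt and control at 48 h, at -0.20 (SE 0.04, adjusted p = 0.0174). That call was lost without Tip60wt replicate 1 (0.0997), without control replicate 1 (0.0535) or 2 (0.0836) and with only those 6 libraries (0.0681). In Tip60dn against control at 48 h step was called as well, at -0.25 (SE 0.04, adjusted p = 7.60e-04).

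Of 27 tested genes of the TOR complexes and their inputs, 4 were higher and 4 lower in Tip60dn than in Tip60wt at 48 h, and 5 higher and 4 lower at 78 h. Against control 7 were higher and 3 lower at 48 h, and 8 higher and 3 lower at 78 h. The shares called were 29.6% and 33.3% against Tip60wt and 37.0% and 40.7% against control, close to the 35.7%, 36.8%, 39.0% and 44.2% of all genes. Iml1, a subunit of the GATOR1 complex that restrains TOR, had 159, 160.5 and 164 CPM in Tip60dn, 145, 150.3 and 150.0 CPM in Tip60wt and 123, 129.7 and 124 CPM in control libraries at 78 h. It rose against control by 0.37 in Tip60dn (SE 0.03, edgeR adjusted p = 8.13e-05) and by 0.25 in Tip60wt (SE 0.03, adjusted p = 0.00396). The Tsc2 gene gig, another brake on TOR, rose in Tip60dn against control at 48 h by 0.27 (SE 0.07, adjusted p = 0.0106). At 78 h gig averaged 98.1 ± 2.84 CPM in Tip60dn, 96.4 ± 6.70 CPM in Tip60wt and 81.1 ± 3.06 CPM in control discs (SD, n = 3). In Tip60wt against control at 78 h it rose by 0.25 (SE 0.06, adjusted p = 0.0353). That call was lost without Tip60wt replicate 2 (0.131) or 3 (0.111), without control replicate 1 (0.154), 2 (0.0558) or 3 (0.122) and with only those 6 libraries (0.0557). Wdr59, of the GATOR2 complex, rose in Tip60dn against Tip60wt at 78 h by 0.23 (SE 0.06, adjusted p = 0.0188). That call was lost without Tip60wt replicate 3 (0.0559).

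Among amino acid transporters of this list, mnd and slif fell in Tip60dn at 78 h, against Tip60wt and against control. Another, path, averaged 400 ± 41.1 CPM in Tip60dn, 393 ± 156 CPM in Tip60wt and 264 ± 47.0 CPM in control discs at 48 h (SD, n = 3). Its 48 h difference of Tip60dn from control was 0.60 on the log2 scale and was not called (SE 0.25, edgeR adjusted p = 0.0892). The transporter gene mnd had 78.1, 77.0 and 79.3 CPM in Tip60dn, 161, 121 and 87.6 CPM in Tip60wt and 82.5, 87.6 and 72.75 CPM in control libraries at 48 h. At 78 h it had 61.4, 57.6 and 51.9 CPM in Tip60dn, 95.9, 89.6 and 78.9 CPM in Tip60wt and 73.4, 65.5 and 74.2 CPM in control libraries. It fell in Tip60dn against Tip60wt by 0.65 at 48 h (SE 0.17, edgeR adjusted p = 0.0176), and missed the threshold without Tip60dn replicate 1 (0.0519) or 2 (0.0540). Against control at 48 h the mnd difference was -0.05 (SE 0.17, adjusted p = 0.857). At 78 h it fell by 0.63 against Tip60wt (SE 0.08, adjusted p = 6.20e-04) and by 0.31 against control (SE 0.08, adjusted p = 0.0146). The transporter gene slif, at 3.24, 3.10 and 3.12 CPM in Tip60dn, 4.21, 4.20 and 4.21 CPM in Tip60wt and 6.10, 4.47 and 5.05 CPM in control libraries at 78 h, fell by 0.42 against Tip60wt (SE 0.12, adjusted p = 0.0264) and by 0.72 against control (SE 0.12, adjusted p = 0.00166).

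Of 14 tested TOR outputs, 3 were higher and 2 lower in Tip60dn than in Tip60wt at 48 h, and 2 higher and 0 lower at 78 h. Against control 1 was higher and 2 lower at 48 h, and 3 higher and 1 lower at 78 h. As shares called these were 35.7% and 14.3% against Tip60wt, where 35.7% and 36.8% of all genes were called, and 21.4% and 28.6% against control, where 39.0% and 44.2% were. RpS6, the substrate of S6k in the small ribosomal subunit, had 2259, 2296 and 2192 CPM in Tip60dn, 2098, 1747 and 1768 CPM in Tip60wt and 1767, 1877 and 1807 CPM in control libraries at 78 h. It rose in Tip60dn by 0.27 against Tip60wt (SE 0.07, edgeR adjusted p = 0.0126) and by 0.31 against control (SE 0.07, adjusted p = 0.00471). Of 8 tested foxo target genes other than InR and Thor, 0 were called in either direction between Tip60dn and Tip60wt at 48 h and at 78 h. Against control, 1 was higher and 1 lower at 48 h, and 3 were higher and 2 lower at 78 h, which is 25.0% and 62.5% beside 39.0% and 44.2% of all genes. The activin ligand gene daw, 1 of these targets, rose in Tip60dn against control at 48 h by 0.98 (SE 0.33, adjusted p = 0.0422). The daw call was lost without Tip60dn replicate 1 (0.123) or 2 (0.103) or control replicate 1 (0.0855), 2 (0.0890) or 3 (0.110).

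For each member, the gene with the closest pattern over the 18 libraries was taken from 6683 named genes whose mean reached 5 CPM, by Pearson's r of log2 CPM, as a description. Akt was followed most closely by Vap33 (r = 0.97, Spearman's rho 0.97) and S6k by stwl (r = 0.96, rho 0.94). Mnt was followed by MESR3 (r = 0.94, rho 0.94), foxo by Dap160 (r = 0.94, rho 0.90), chico by ana3 (r = 0.93, rho 0.92), Myc by CG44085 (r = 0.93, rho 0.84) and Tor by Larp4B (r = 0.93, rho 0.92). InR had a looser match, with ZnT63C (r = 0.81, rho 0.78). CG44085 had 26.3, 33.5 and 24.6 CPM in Tip60dn, 11.3, 11.1 and 11.5 CPM in Tip60wt and 13.7, 23.2 and 12.2 CPM in control libraries at 48 h, and like Myc it had its highest control library in replicate 2. The 18 libraries share their arms and durations, so these correlations hold the group differences as well as the spread within groups.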

How the data were processed

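Gene counts of 18 wing disc libraries were deposited as 1 table per duration, whole numbers per FlyBase identifier. The submitters' processing notes name build BDGP6, FastQC, edgeR 3.13.4, featureCounts and limma. The sources used here do not give the aligner, the strand setting or the annotation release. Symbols, coordinates and exon lengths came from release 115 of the Ensembl annotation, which matched 17253 of 17559 identifiers. The earlier identifiers of InR and S6k are not in that annotation and were assigned from FlyBase naming.

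Tests were run in R 4.3.3 with edgeR 4.0.16: filterByExpr (minimum count 10), TMM scaling, and glmQLFit and glmQLFTest, two-sided, with Benjamini-Hochberg adjustment. The 9 libraries of a duration were fitted together for comparisons of arms, and all 18 for comparisons of durations and interactions. A log2 fold change over the square root of its F gave the SE. Printed CPM use the TMM factors of the 18 libraries, and their precision is given as the SD over 3 libraries. DESeq2 1.42.0 and limma 3.58.1 (voom) were alternatives, with other scaling, no filter, other sets of libraries, a replicate block and each library left out.

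Deviations of libraries with the same number correlated at 0.29, 0.35 and 0.32 between Tip60dn and Tip60wt at 78 h, and there the numbers were read as pairs. With control at 78 h they correlated at -0.04, -0.10 and -0.07 for Tip60dn and at 0.07, -0.02 and 0.007 for Tip60wt. The labels give replicate numbers but do not say that they are pairs. The block was fitted over all 9 libraries of a duration, control included, and the main values come from fits without it.

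The members and lists were chosen with earlier results of these data known. Named list genes were, for each comparison of arms, at most 3 called genes at either end of the log2 fold changes whose higher group averaged 5 CPM or more. The transporter gene path was named in addition, beside mnd and slif. Of the lists, the entry Lobe was not matched.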

Additional observations from a re-analysis of the deposited data

How the results depend on the processing

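Leaving out each library in turn gave 2 to 4 called members for Tip60dn against Tip60wt at 48 h, 2 to 4 for Tip60dn against control at 48 h, 0 to 1 for Tip60wt against control at 48 h, 2 to 4 for Tip60dn against Tip60wt at 78 h, 2 to 5 for Tip60dn against control at 78 h and 0 to 1 for Tip60wt against control at 78 h. For comparisons of durations and interactions it gave 0 to 0. DESeq2 called 1 member for Tip60wt against control at 48 h. Of 810 values of single members with a library left out, 776 stayed on their side of the threshold, 28 lost a call and 6 gained one. In 87 of them the sign changed, and 0 of these were called with or without the library. Of 648 under the other settings, 631 stayed on their side, 6 lost a call and 11 gained one. The sign changed in 7, and 0 of these were called in either fit. Of 972 list counts recomputed, 894 stayed within 1.5 times and 78 did not.

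With the replicate block, 4 members were called for Tip60dn against Tip60wt at 78 h. Elsewhere the numbers did not pair the libraries by the correlations of their deviations. There the block gave 3 calls for Tip60dn against Tip60wt at 48 h (Akt at adjusted p = 0.0769) and 5 for Tip60dn against control at 48 h (chico at 0.0451), and it left the counts of the other comparisons as they were. Depth did not limit the members, whose lowest value was 380 counts. At 48 h Thor had an SD of 14.5 CPM in Tip60wt, beside 4.98 CPM in Tip60dn and 0.864 CPM in control discs. The smaller differences of chico, foxo and S6k sat close to the threshold. So did the 48 h calls of Akt against Tip60wt (edgeR adjusted p = 0.0462) and of Myc against control (0.0436). Both Mnt calls against control were lost when some single libraries were left out.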

Other observations

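Some members varied together among libraries of the same group. With the group means removed from log2 CPM over the 18 libraries, foxo and Tor had r = 0.79, InR and Mnt 0.75 and foxo and Mnt 0.64, while S6k ran against Tor (r = -0.66) and foxo (r = -0.63). Over all 18 libraries with group means kept, foxo and Tor had r = 0.81, whereas S6k had r = -0.08 with Tor and -0.003 with foxo. Akt and Myc had r = -0.57 with the group means kept and 0.67 with them removed. Myc and Mnt had r = -0.64 with them kept and 0.11 with them removed, so their opposite course in Tip60dn was not seen among libraries of a group. These pairs were chosen after their values were seen, of the 36 pairs of the 9 genes, and the libraries share depth and scaling.

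Tip60wt 78 h replicate 1 stood apart from the other Tip60wt libraries of its duration in several of these genes. It had 50.5 CPM of foxo, against 57.4 and 59.5 CPM, 223 CPM of Tor, against 249 and 247 CPM, and 154 CPM of S6k, against 132 and 134 CPM. It also held 986 CPM of Tip60, against 1759 and 1985 CPM, and the most nop5 (418 CPM, against 332 and 333 CPM) and RpS6 (2098 CPM, against 1747 and 1768 CPM).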
